A study of Rattus norvegicus with 32 samples.

Results

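The 10 genes described here take fatty acids into muscle fibres, store them in lipid droplets and release them again: Lpl, Cd36, Fabp3, Slc27a1, Acsl1, Plin2, Plin5, Lipe, Pnpla2 and Angptl4. They were matched by gene symbol in the deposited normalised table. Of the 10 genes, 8 were found among the 12901 genes of that table, and all 8 passed the filter on low counts. Cd36 and Pnpla2 were not analysed here. The RNA came from gastrocnemius, a calf muscle, of male rats aged 20 weeks. A control group of 7 libraries (control_RT) and a group of 9 libraries from rats lacking UCP1 (KO_RT) were taken at room temperature. Matching groups of 7 control libraries (control_4C) and 9 knockout libraries (KO_4C) were taken after 2 weeks at 4 °C. All groups were chow-fed per the series title, and the controls are called wild-type in the protocol. Neither the strain nor the knockout allele is stated, nor is it stated if the same rats gave a sample at both temperatures, so the p-values measure the spread between these samples. KO_RT libraries are called by the numbers in their table columns (8 to 11 and 13 to 17). UCP1 is the proton channel with which brown fat turns fuel into heat, and the comparisons address how muscle responds to lasting cold with and without it.

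Muscle draws fatty acids from circulating triglyceride and from its own droplets. Lipoprotein lipase (Lpl), held on the capillary wall by Gpihbp1 and inhibited by Angptl4, frees fatty acids from lipoproteins. Transport proteins such as Slc27a1 carry them over the membrane, Fabp3 binds them in the fibre, and Acsl1 couples them to coenzyme A. Surplus fatty acids are stored as triglyceride under a coat of perilipins. Plin2 is the widespread coat protein, and Plin5 is the perilipin of oxidative tissues that links droplets to mitochondria. Hormone-sensitive lipase (Lipe) takes part in the release of stored fat. Many of these genes are targets of the PPARs, nuclear receptors that bind fatty acids.

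Promoter sequences are printed for Plin5 and Fabp3, whose levels moved together across libraries, and for Plin2, the droplet coat gene that did not pass a test. Each is the 250 bases before an annotated transcription start, read from RefSeq's GRCr8 build. The table held promoters for 6 of the 8 genes, 7 promoters in all because Plin2 has a pair of starts. The Plin5 promoter lies at chr9:1033285-1033534 (minus strand) and that of Fabp3 at chr5:147935875-147936124 (plus strand). Those of Plin2 lie at chr5:106229019-106229268 and chr5:106228538-106228787 (minus strand). Capitals mark matches, on either strand, to AGGTCA (the core hexamer of nuclear receptor sites), CACGTG (the E-box) and GGGCGG (the GC box).
Plin5: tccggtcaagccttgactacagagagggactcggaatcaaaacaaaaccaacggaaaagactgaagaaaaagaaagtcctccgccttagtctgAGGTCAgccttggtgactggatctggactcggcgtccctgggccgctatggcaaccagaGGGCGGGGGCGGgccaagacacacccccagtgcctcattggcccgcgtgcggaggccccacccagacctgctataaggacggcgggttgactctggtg
Fabp3: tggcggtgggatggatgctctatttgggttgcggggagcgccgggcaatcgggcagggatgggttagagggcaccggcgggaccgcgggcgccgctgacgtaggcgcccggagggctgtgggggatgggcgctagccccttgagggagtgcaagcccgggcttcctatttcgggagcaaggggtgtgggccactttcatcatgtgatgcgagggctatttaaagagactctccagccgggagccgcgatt
Plin2 first start: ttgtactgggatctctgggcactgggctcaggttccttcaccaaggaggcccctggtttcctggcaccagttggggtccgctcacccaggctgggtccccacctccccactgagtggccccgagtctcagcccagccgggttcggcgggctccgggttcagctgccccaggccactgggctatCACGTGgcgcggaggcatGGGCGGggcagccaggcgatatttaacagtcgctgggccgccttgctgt
Plin2 second start: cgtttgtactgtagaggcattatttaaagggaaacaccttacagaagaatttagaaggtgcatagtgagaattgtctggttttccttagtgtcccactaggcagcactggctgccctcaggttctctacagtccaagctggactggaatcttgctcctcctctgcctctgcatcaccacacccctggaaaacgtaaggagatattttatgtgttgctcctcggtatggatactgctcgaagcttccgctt
The Plin5 promoter held AGGTCA beginning 157 bases before the start and GGGCGG, directly repeated, at 98 and 92 bases. The first Plin2 promoter held CACGTG at 67 bases and GGGCGG at 49 bases. The Fabp3 promoter and the second Plin2 promoter held none of these letters in this window. Among all 33469 promoters of the table, 14.1% held AGGTCA, 5.59% held CACGTG and 30.5% held GGGCGG. A repeat of AGGTCA with 1 base between the copies, the shape of a PPAR element, was in 0.0508% of promoters and in none of the 7 printed or searched here. A match is a description of letters and not a measured binding site.

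Library totals ran from 7.28e+06 to 2.58e+07 deposited counts. Levels are given as CPM, which are counts scaled to a common library size with the factors of the edgeR package, and changes as log2 fold changes with their standard error (SE). The 10 muscle fibre markers of the table summed to 122992 to 154125 CPM in the group means, far above the sums of the 11 adipocyte (190 to 391 CPM) and 11 endothelial markers (594 to 885 CPM). All of these markers were above 0 in every library, so fat and vessel transcripts were present beside those of muscle fibres. An earlier analysis found that 4 libraries stood apart: control_RT replicates 2 and 3 and KO_RT replicates 8 and 10. Results are therefore also given without them.

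After 2 weeks of cold, genes for lipoprotein lipolysis, fatty acid binding, fatty acid activation and the oxidative droplet coat were higher in both genotypes. In control rats 4 of the 8 genes were called higher and 0 lower, at an adjusted p under 0.05 in the edgeR quasi-likelihood test with Benjamini-Hochberg adjustment over all genes. Over all 11594 genes tested, 20.7% were called in this comparison, 12.4% higher and 8.28% lower. In knockout rats 5 of the 8 were called higher and 0 lower, where 13.8% of all genes were called, 7.49% higher and 6.28% lower. Lpl, Fabp3, Acsl1 and Plin5 rose in both genotypes and Lipe in knockout rats, while Plin2, Slc27a1 and Angptl4 passed no test. The median log2 change of the 8 genes was 0.41 in control rats, against 0.03 over all genes, and 0.68 in knockout rats, against 0.01.

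**Figure D1:**
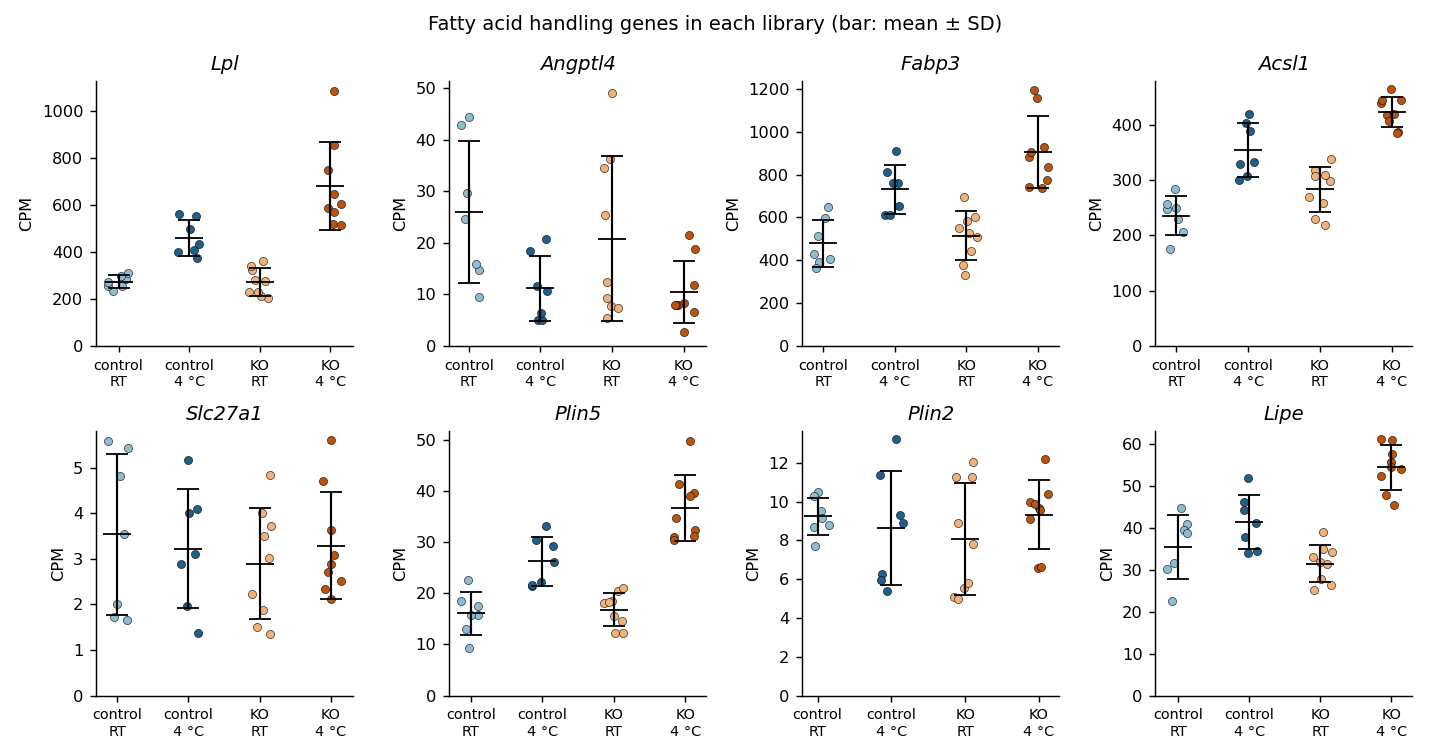
TMM-scaled CPM of each of the 8 genes in every library, by group. Points are libraries (7 per control group, 9 per knockout group), and the marks give the mean and SD. The cold libraries lie above the room-temperature libraries for Lpl and Acsl1 in both genotypes, while those of Plin2 and Slc27a1 intermingle.

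Lpl (ENSRNOG00000012181), the lipase at the capillary wall, ran from 234 to 310 CPM in control_RT (median 272) and from 372 to 562 in control_4C (median 433). Its mean went from 273 ± 26.8 to 460 ± 76.1 CPM (SD, n = 7 each). In KO_RT it ran from 202 to 363 CPM (median 275) and in KO_4C from 513 to 1081 (median 604). Every cold library lay above every room-temperature library of its genotype. The rise was 1.68-fold in control rats (log2 0.75 ± 0.15, edgeR adjusted p = 0.000433) and 2.49-fold in knockout rats (log2 1.32 ± 0.13, edgeR adjusted p = 2.37e-08). Without the 4 libraries that stood apart the log2 changes were 0.68 and 1.27.

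Angptl4, a secreted inhibitor of Lpl, ran the other way in its group means without passing the test. It ran from 9.52 to 44.4 CPM in control_RT (median 24.7) and from 5.07 to 20.8 in control_4C (median 10.7). In KO_RT it ran from 5.45 to 49.0 CPM (median 12.4) and in KO_4C from 2.65 to 21.5 (median 8.04). All 7 control_4C libraries lay below the control_RT mean, and 8 of 9 KO_4C libraries below the KO_RT mean, but the groups overlapped. The SD was 53.2% of the mean in control_RT and 76.6% in KO_RT. The log2 change was -1.23 ± 0.49 in control rats (edgeR adjusted p = 0.0718) and -1.01 ± 0.43 in knockout rats (adjusted p = 0.123), where it was 0.17 with the level of slow-fibre markers as a covariate. In control rats it passed the test without control_RT replicate 4 (log2 -1.39, edgeR adjusted p = 0.041), without control_4C replicate 4 (-1.46, adjusted p = 0.0454) and in a fit of the compared groups alone (-1.26, adjusted p = 0.0468). In the other 11 of 12 alternatives to the main fit Angptl4 did not pass there. Over the 12 its log2 change ran from -1.26 to -0.07, with an edgeR adjusted p of up to 0.9675.

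Fabp3 (ENSRNOG00000012879), the fatty acid binding protein of heart and muscle, ran from 364 to 648 CPM in control_RT (median 431) and from 610 to 911 in control_4C (median 759). In the knockout groups it ran from 331 to 695 CPM at room temperature (median 528) and from 736 to 1193 after cold (median 882). The knockout groups did not overlap, and 5 of 7 control_4C libraries lay above the highest control_RT library. Fabp3 rose 1.53-fold in control rats (log2 0.61 ± 0.15, edgeR adjusted p = 0.00281) and 1.76-fold in knockout rats (log2 0.82 ± 0.13, adjusted p = 3.01e-05). Without the 4 libraries that stood apart these changes were 0.50 and 0.74.

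Acsl1 (ENSRNOG00000010633), the synthetase that activates long-chain fatty acids, ran from 176 to 284 CPM in control_RT (median 248) and from 301 to 420 in control_4C (median 332). It ran from 219 to 338 CPM in KO_RT (median 298) and from 385 to 465 in KO_4C (median 419). Neither genotype's groups overlapped. The log2 change was nearly the same in both, 0.59 ± 0.10 in control and 0.58 ± 0.09 in knockout rats (edgeR adjusted p = 0.000129 and 2.03e-05), and 0.47 and 0.50 without the 4 libraries. Slc27a1, a fatty acid transport protein of the plasma membrane, was measured at 1.36 to 5.60 CPM over the 32 libraries, or 12 to 106 deposited counts. Its log2 changes were -0.10 ± 0.31 in control rats (edgeR adjusted p = 0.853) and 0.19 ± 0.28 in knockout rats (adjusted p = 0.699). In control rats a change as large as that of Acsl1 would lie within 2 SE of 0 for Slc27a1.

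Of the droplet coat genes, Plin5 was called in both genotypes and Plin2 in neither. Plin5 (ENSRNOG00000047860) ran from 9.41 to 22.6 CPM in control_RT (median 15.7) and from 21.3 to 33.2 in control_4C (median 26.0). It ran from 12.2 to 21.0 CPM in KO_RT (median 18.1) and from 30.3 to 49.7 in KO_4C (median 34.8). The knockout groups did not overlap, and in control rats 4 of 7 cold libraries lay above the highest at room temperature. Plin5 rose 1.63-fold in control rats (log2 0.71 ± 0.15, edgeR adjusted p = 0.00113) and 2.17-fold in knockout rats (log2 1.11 ± 0.14, adjusted p = 5.85e-07). Without the 4 libraries these were 0.68 and 1.09. Plin2 averaged 9.24 ± 0.969 CPM in control_RT and 8.64 ± 2.96 in control_4C (SD, n = 7 each). Its knockout means were 8.08 ± 2.90 CPM at room temperature and 9.34 ± 1.78 after cold (SD, n = 9 each), and all groups overlapped. Its log2 changes were -0.09 ± 0.20 and 0.22 ± 0.18 (edgeR adjusted p = 0.791 and 0.454).

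Lipe (ENSRNOG00000020546), the hormone-sensitive lipase, ran from 22.6 to 44.8 CPM in control_RT (median 38.8) and from 34.2 to 52.0 in control_4C (median 41.3). It ran from 25.2 to 39.1 CPM in KO_RT (median 31.8) and from 45.6 to 61.3 in KO_4C (median 54.6). The control groups overlapped, with 2 of 7 cold libraries above the highest at room temperature, while the knockout groups did not overlap. The log2 change was 0.23 ± 0.12 in control rats (edgeR adjusted p = 0.187). In knockout rats Lipe rose 1.73-fold (log2 0.79 ± 0.11, edgeR adjusted p = 3.03e-06), and by log2 0.81 without the 4 libraries.

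Counted by overlap, the groups were separate for 2 of the 8 genes in control rats (Lpl and Acsl1), against 5.75% of all genes tested. In knockout rats they were separate for 5 of the 8 (Lpl, Fabp3, Acsl1, Plin5 and Lipe), against 1.66% of all genes. Leaving out any 1 of the 32 libraries ended none of the 9 calls of higher expression.

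**Figure D2:**
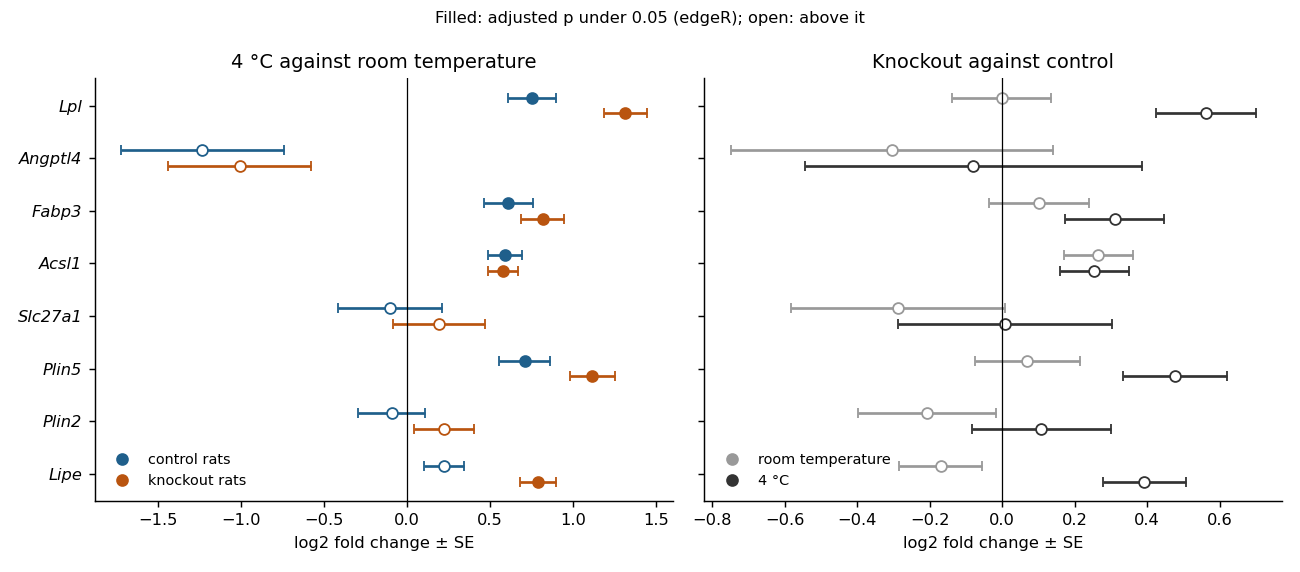
Log2 fold changes of the 8 genes, with bars of 1 SE on each side. The left panel gives 4 °C against room temperature in control and knockout rats, the right panel knockout against control at each temperature, and filled points passed the edgeR threshold. The knockout points of Lpl, Plin5 and Lipe lie to the right of the control points in the left panel, those of Acsl1 lie side by side, and no point of the right panel is filled.

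Other features of the tissue moved with cold in these libraries. The summed level of the 10 slow-fibre markers was 7030 to 13236 CPM in control_RT and 13417 to 22842 in control_4C (means 10663 and 18672, exact permutation p = 0.000583, adjusted p = 0.00503 over 36 tests). In knockout rats it was 6827 to 16100 and 11302 to 22982 CPM (exact permutation adjusted p = 0.00568). Of the 10 slow-fibre markers, 9 were called higher in each genotype. Adding this level to the model as a covariate ended the calls of Lpl (log2 0.36, edgeR adjusted p = 0.283), Fabp3 (0.45, adjusted p = 0.195) and Acsl1 (0.28, adjusted p = 0.191) in control rats and of Acsl1 in knockout rats (0.31, adjusted p = 0.11). A mean level of 45 transcripts that were low in KO_RT replicate 10, chosen after seeing the data, was 4.61 ± 0.66 in control_RT and 6.13 ± 0.18 in control_4C (log2 CPM, SD, n = 7 each), and 5.46 ± 1.07 and 6.19 ± 0.19 in the knockout groups (n = 9 each). With it as a covariate the calls of Lpl (0.51, edgeR adjusted p = 0.1), Fabp3 (0.42, adjusted p = 0.202) and Acsl1 (0.34, adjusted p = 0.0766) in control rats also ended. Calls over all genes fell too, to 4.37% in control and 4.09% in knockout rats with the slow-fibre covariate. With the covariate of 45 transcripts they fell to 3.39% and 10.3%. Plin5 kept its calls in both genotypes with either covariate, its log2 change running from 0.68 to 0.77 in control rats and from 1.09 to 1.17 in knockout rats over all alternatives other than leaving out single libraries.

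Fat, vessel and red cell transcripts also moved. The 11 adipocyte markers summed to 166 to 215 CPM in control_RT and 293 to 486 in control_4C without overlap (exact permutation adjusted p = 0.00503). In knockout rats they summed to 151 to 695 CPM at room temperature and 300 to 491 after cold (adjusted p = 0.160 in the exact permutation test). The most abundant of them was Fabp4, also a gene of capillary endothelium (median 150 CPM over all libraries), before Cfd (81.5 CPM). Adipocytes also express Lpl, Lipe and Plin5's relative Plin1. With the adipocyte level as a covariate 4 genes in control and 5 in knockout rats were still called higher, where 17.6% and 13.7% of all genes were called. The 11 endothelial markers summed to 547 to 748 CPM in control_RT and 621 to 1011 in control_4C (exact permutation adjusted p = 0.375). In knockout rats they went from 529 to 805 CPM to 674 to 1182 (adjusted p = 0.00444 in the exact permutation test). Aqp1 made up the largest part of this sum (median 360 CPM over all libraries), before Egfl7 (73.2 CPM). The endothelial covariate also left 4 and 5 calls, where 22.5% and 6.23% of all genes were called. The erythroid markers, 4 in the table, averaged 396 and 956 CPM in sum in control rats before and after cold (exact permutation adjusted p = 0.148) and 424 and 801 CPM in knockout rats (adjusted p = 0.00787 in the exact permutation test). The control_4C mean includes replicate 2 at 3468 CPM, and the medians of the control groups were 382 and 556 CPM. The brown adipocyte list had 2 genes in the table, Ppargc1a and Cox8b, which muscle also expresses, and summed to 1235 and 985 CPM in control rats (exact permutation adjusted p = 0.0126). In knockout rats its sums were 1178 and 1075 CPM (adjusted p = 0.201 in the exact permutation test). The part of these lists in the cold changes of the 8 genes was not tested. In such bulk samples, fewer cells of a type and less RNA per cell cannot be told apart.

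**Figure D3:**
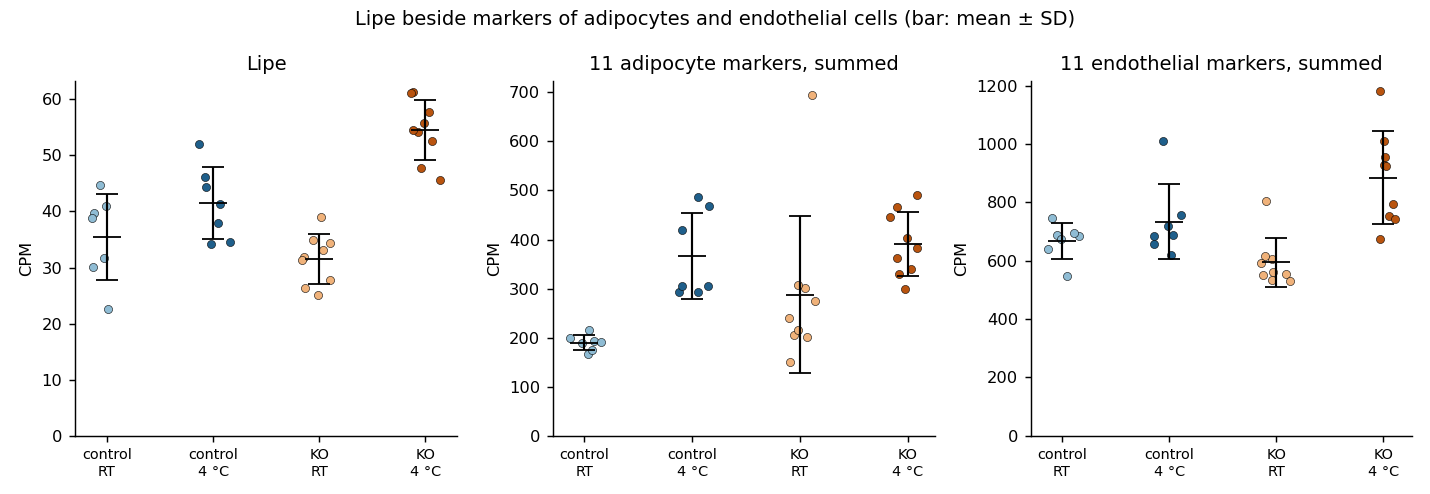
Lipe level, summed level of 11 adipocyte markers and summed level of 11 endothelial markers (CPM) in each library, by group. Points are libraries and bars give the mean and SD. The KO_4C libraries lie at 45.6 to 61.3 CPM for Lipe, above all KO_RT libraries. Their adipocyte sums (300 to 491 CPM, mean 391) overlap those of KO_RT (151 to 695 CPM, mean 288, highest in replicate 8). Their endothelial sums (674 to 1182 CPM, mean 885) also overlap those of KO_RT (529 to 805 CPM, mean 594).

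At room temperature none of the 8 genes was called between the genotypes by edgeR, where 2.61% of all genes were called, 2.35% higher and 0.259% lower in knockout rats. The groups overlapped for all 8, and did not overlap for 0.104% of all genes. One, Acsl1, had an unadjusted p under 0.05, as did 17.2% of all genes (235 ± 35.6 CPM in control_RT, n = 7, and 283 ± 40.9 in KO_RT, n = 9, SD), with a log2 difference of 0.27 ± 0.10 (edgeR adjusted p = 0.126). Without KO_RT replicate 8 that difference was 0.29 (edgeR adjusted p = 0.0399). Lpl had the same mean in both genotypes, 273 ± 26.8 and 273 ± 58.4 CPM (SD, n = 7 and 9), with a log2 difference of -0.00 ± 0.14 (edgeR adjusted p = 0.998). The DESeq2 package called 0 of the 8 as well.

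At 4 °C none of the 8 genes passed the threshold between the genotypes. The median log2 difference of the 8, knockout against control, was 0.28, against 0.02 over all genes. For Slc27a1 it was 0.01 ± 0.30, for Plin2 0.11 ± 0.19 and for Angptl4 -0.08 ± 0.47. Over all genes 0.0518% were called by edgeR, 0.0345% higher and 0.0173% lower in knockout rats. Unadjusted p-values under 0.05 were found for 5 of the 8 (Lpl, Plin5, Lipe, Fabp3 and Acsl1) and for 14.6% of all genes. For Lpl 7 of 9 KO_4C libraries lay above the highest of control_4C, and the means were 679 ± 187 and 460 ± 76.1 CPM (SD, n = 9 and 7), a log2 difference of 0.56 ± 0.14 (edgeR adjusted p = 0.0531). For Lipe 7 of 9 KO_4C libraries lay above the highest of control_4C, with a log2 difference of 0.39 ± 0.11 (edgeR adjusted p = 0.0678). For Plin5 this held for 5 of 9 libraries, with 0.48 ± 0.14 (adjusted p = 0.0753 by edgeR). Fabp3 differed by 0.31 ± 0.14 (edgeR adjusted p = 0.269) and Acsl1 by 0.25 ± 0.10 (adjusted p = 0.171). DESeq2 called 3 of the 8 higher in knockout rats, Lpl (0.55, DESeq2 adjusted p = 0.0105), Lipe (0.38, adjusted p = 0.0424) and Plin5 (0.46, adjusted p = 0.0448), where it called 3.35% of all genes. The groups overlapped for all 8 genes, and did not overlap for 0.0949% of all genes.

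In the main analysis the Lpl value at 4 °C lay close to the threshold. Lpl passed it without any 1 of 10 libraries (control_RT replicates 4, 6 and 7, KO_RT replicates 8, 10 and 16, control_4C replicates 1, 4, 5 and 7), and over all 32 such fits its log2 difference ran from 0.45 to 0.61 with an edgeR adjusted p from 0.0129 to 0.328. It also passed with RLE factors (0.55, edgeR adjusted p = 0.0468), with factors that left out the 20 genes of highest count (0.54, adjusted p = 0.0451), with halved counts (0.55, adjusted p = 0.0488), with the covariate of 45 transcripts (0.55, adjusted p = 0.0437) and with the slow-fibre covariate (0.61, adjusted p = 0.0164). Lpl did not pass in 5 of 11 alternatives. These were the tests without the filter, the compared groups alone, leaving out the 4 libraries, and the adipocyte and endothelial covariates. Over the 11 alternatives its log2 difference ran from 0.45 to 0.61, with an edgeR adjusted p of up to 0.9995. Acsl1 passed with the slow-fibre covariate (0.29, edgeR adjusted p = 0.0422). Lipe passed it without control_RT replicate 4 (0.38, edgeR adjusted p = 0.0357) or control_4C replicate 7 (0.42, adjusted p = 0.0294). Without the 4 libraries that stood apart the differences were 0.55 for Lpl, 0.38 for Lipe and 0.47 for Plin5. The intestinal epithelial markers, of which 10 of 12 listed were in the table, summed to 224 to 962 CPM in control_4C and 188 to 277 in KO_4C (exact permutation adjusted p = 0.00503). Their part in the differences between these groups was not tested.

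The cold responses of the genotypes were compared directly as knockout minus control. None of the 8 genes was called, where 0.0259% of all genes were called, 0.00863% higher and 0.0173% lower, and DESeq2 called 0 of the 8. The edgeR unadjusted p was under 0.05 for 2 of the 8 and for 12.9% of all genes. For Lipe the cold response was larger in knockout rats by log2 0.56 ± 0.16 (edgeR adjusted p = 0.134), and without control_RT replicate 4 by 0.65 (adjusted p = 0.0321). For Lpl it was larger by 0.56 ± 0.19 (edgeR adjusted p = 0.180) and for Plin5 by 0.41 ± 0.20 (adjusted p = 0.395). For Acsl1 the difference was -0.01 ± 0.13 (edgeR adjusted p = 0.984). So a call of Lipe in knockout and not in control rats was not shown to be a difference between them.

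Of 89 other genes of the pathway, listed by role, 79 were in the table and 75 were tested. In control rats cold raised 14 and lowered 10 of them, and in knockout rats it raised 13 and lowered 5. Over all genes the shares were 12.4% higher and 8.28% lower in control and 7.49% and 6.28% in knockout rats, and several of the counts by role below, each over 10 to 17 genes, lie near those shares. At room temperature 2 were higher and 1 lower in knockout rats, and at 4 °C and in the difference of the cold responses 0 were called. Among the pathway genes singled out by the rule for naming, the slow-fibre covariate ended 16 of 20 calls in control and 8 of 12 in knockout rats. The covariate of 45 transcripts ended 13 of 20 and 4 of 12, the adipocyte covariate 8 of 20 and 3 of 12, and the endothelial covariate 6 of 20 and 7 of 12. Calls over all genes went from 20.7% in control and 13.8% in knockout rats to 4.37% and 4.09% with the slow-fibre covariate. They were 3.39% and 10.3% with that of 45 transcripts, 17.6% and 13.7% with the adipocyte and 22.5% and 6.23% with the endothelial covariate.

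Among 14 tested partners of uptake, 6 rose and 0 fell in control rats and 4 rose and 0 fell in knockout rats. Gpihbp1, the endothelial anchor of Lpl, ran from 2.63 to 5.68 CPM in control_RT and 4.58 to 11.1 in control_4C, and from 1.84 to 4.59 in KO_RT and 6.38 to 13.0 in KO_4C. The knockout groups did not overlap. Gpihbp1 rose by log2 0.66 ± 0.20 in control rats (edgeR adjusted p = 0.0166) and 1.41 ± 0.18 in knockout rats (adjusted p = 1.17e-06). The call in control rats ended without control_4C replicate 7 (0.51, edgeR adjusted p = 0.0665), with the endothelial covariate (0.51, adjusted p = 0.0757), with the adipocyte covariate (0.41, adjusted p = 0.228) and with the slow-fibre covariate (0.57, adjusted p = 0.248). The difference of its cold responses was 0.75 ± 0.27 (edgeR adjusted p = 0.206). Fabp4, the fatty acid binding protein of adipocytes and capillary endothelium, rose from 77.6 ± 13.3 to 173 ± 26.5 CPM in control rats and from 117 ± 32.7 to 186 ± 16.7 in knockout rats (SD, n = 7, 7, 9 and 9). Its log2 changes were 1.16 ± 0.15 and 0.67 ± 0.13 (edgeR adjusted p = 2.6e-06 and 0.00031), and the call in knockout rats ended with the slow-fibre covariate (0.45, adjusted p = 0.159). Lrp1, a receptor for lipoprotein remnants, rose in control rats by 0.91 ± 0.14 (edgeR adjusted p = 4.63e-05). All 9 KO_4C libraries lay above the KO_RT mean of Lrp1 (ratio of means 1.26).

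At room temperature Fabp4 and Vldlr, a receptor that takes up triglyceride-rich lipoproteins, were higher in knockout rats, by log2 0.59 ± 0.14 and 0.67 ± 0.15 (edgeR adjusted p = 0.0171 and 0.0137). Fitm1, a muscle protein of droplet formation, was lower by 0.34 ± 0.09, a log2 difference of -0.34 (edgeR adjusted p = 0.03). These 3 calls ended in a fit of the compared groups alone, with log2 differences of 0.58 for Fabp4, 0.66 for Vldlr and -0.34 for Fitm1 (edgeR adjusted p from 0.0911 to 0.133). They also ended with the covariate of 45 transcripts, with 0.24 for Fabp4, 0.31 for Vldlr and -0.31 for Fitm1 (edgeR adjusted p from 0.177 to 0.299). That of Fabp4 also ended without control_RT replicate 2 (0.53, adjusted p = 0.0585), control_RT replicate 3 (0.53, adjusted p = 0.0549) or KO_RT replicate 16 (0.51, edgeR adjusted p = 0.0501). That of Fitm1 ended without control_RT replicates 2 or 3 or KO_RT replicates 11 or 13, with an edgeR adjusted p of up to 0.0699.

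Of 10 tested genes of fatty acid activation, 1 rose and 1 fell in control rats and 2 rose and 1 fell in knockout rats. Acot2, a mitochondrial thioesterase that releases fatty acids from coenzyme A, rose by log2 0.91 ± 0.21 and 0.64 ± 0.18 (edgeR adjusted p = 0.00228 and 0.0164). Both calls ended with the slow-fibre covariate (0.64 and 0.40, edgeR adjusted p = 0.226 and 0.47) and with that of 45 transcripts (0.16 and 0.32, adjusted p = 0.676 and 0.12), and the call in knockout rats also with the endothelial covariate (0.47, adjusted p = 0.357). Acsl6, a relative of Acsl1, fell from 66.2 ± 10.8 to 44.0 ± 9.14 CPM in control rats and from 78.4 ± 16.7 to 47.8 ± 8.37 in knockout rats (SD, n = 7, 7, 9 and 9). Its log2 changes were -0.59 ± 0.14 and -0.71 ± 0.12 (edgeR adjusted p = 0.00277 and 0.000106), opposite in sign to those of Acsl1.

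Of 11 tested droplet genes, 2 rose and 2 fell in control rats, and 2 rose and 0 fell in knockout rats. In control rats Cidec and Plin1, droplet proteins of adipocytes and members of the adipocyte marker list, rose by log2 1.65 ± 0.41 and 1.27 ± 0.42 (edgeR adjusted p = 0.00389 and 0.028). Both levels were low, at 0.33 to 7.26 CPM for Cidec and 0.94 to 15.5 CPM for Plin1 over all libraries. With the adipocyte level, which contains them, as a covariate their changes were 0.25 and 0.05. With the slow-fibre covariate they were 1.42 and 1.56 and no longer called (edgeR adjusted p = 0.166 and 0.128), nor was Plin1 with the endothelial covariate (1.21, adjusted p = 0.052). The call of Plin1 ended without control_RT replicates 1 or 2 or control_4C replicates 5 or 6 (edgeR adjusted p of up to 0.0715). In knockout rats Plin1 changed by 0.28 ± 0.35 (edgeR adjusted p = 0.652), and by 0.84 without KO_RT replicate 8 (adjusted p = 0.03 by edgeR). Fitm1 fell in control rats (log2 -0.47 ± 0.09, edgeR adjusted p = 0.000534). Rab18, a small GTPase on droplets, rose in knockout rats from 47.7 ± 5.06 to 64.2 ± 6.54 CPM (SD, n = 9 each), a log2 change of 0.43 ± 0.07 (edgeR adjusted p = 0.0001), which was no longer called with the endothelial covariate (0.34, adjusted p = 0.0728). Among control_4C libraries 6 of 7 lay above the control_RT mean of Rab18 (ratio of means 1.08). Plin4 changed by log2 -0.41 ± 0.50 and -0.35 ± 0.45 (edgeR adjusted p = 0.607 and 0.664). Plin3 was in the table but did not pass the filter on low counts, and was not tested.

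Of 13 tested genes of lipolysis, 2 rose and 2 fell in control rats, and 0 rose and 3 fell in knockout rats. Prkar2a, a regulatory subunit of protein kinase A, fell by log2 -0.82 ± 0.19 and -0.87 ± 0.17 (edgeR adjusted p = 0.00203 and 0.0004). The call in control rats ended with the slow-fibre covariate (-0.66, edgeR adjusted p = 0.141) and with that of 45 transcripts (-0.31, adjusted p = 0.429), and that in knockout rats with the slow-fibre covariate (-0.72, adjusted p = 0.0701). Ces1d, a carboxylesterase that hydrolyses triglyceride in adipose tissue, rose in control rats by 1.29 ± 0.28 (edgeR adjusted p = 0.0011), a call that ended with the slow-fibre covariate (0.90, adjusted p = 0.188) and with that of 45 transcripts (1.02, adjusted p = 0.099). Abhd5, the activator of adipose triglyceride lipase, changed by log2 -0.04 ± 0.14 and 0.01 ± 0.12 (edgeR adjusted p = 0.859 and 0.967). G0s2, that lipase's inhibitor, changed by 0.60 ± 0.48 and -0.01 ± 0.42 (edgeR adjusted p = 0.406 and 0.994). Of 10 tested genes of triglyceride synthesis, 1 rose and 1 fell in control rats and 0 were called in knockout rats. Lpin1, a phosphatidate phosphatase, fell by log2 -0.84 ± 0.19 in control rats (edgeR adjusted p = 0.00181), a call that ended with the slow-fibre covariate (-0.60, adjusted p = 0.184) and with that of 45 transcripts (-0.36, adjusted p = 0.357). Dgat1 and Dgat2, which make the last step, changed by -0.08 ± 0.16 and 0.18 ± 0.11 in control rats (edgeR adjusted p = 0.774 and 0.279) and by -0.15 ± 0.14 and 0.10 ± 0.10 in knockout rats (adjusted p = 0.53 and 0.588).

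Of 17 tested fatty acid receptors and their muscle targets, 2 rose and 4 fell in control rats, and 5 rose and 1 fell in knockout rats. Cpt2, the inner carnitine palmitoyltransferase of mitochondria, rose in knockout rats from 84.8 ± 11 to 128 ± 10.1 CPM (SD, n = 9 each), a log2 change of 0.60 ± 0.09 (edgeR adjusted p = 1e-05). It was also called higher in control rats (log2 0.33, edgeR adjusted p = 0.0172). That call ended without control_4C replicate 7 (0.26, edgeR adjusted p = 0.0572) and with the endothelial covariate (0.27, adjusted p = 0.0667). The slow-fibre covariate (0.25, edgeR adjusted p = 0.312) and that of 45 transcripts (0.28, adjusted p = 0.23) ended it too. Slc25a20, the carnitine carrier of the inner mitochondrial membrane, rose in knockout rats by 0.63 ± 0.12 (edgeR adjusted p = 0.00027), a call that ended with the slow-fibre covariate (0.40, adjusted p = 0.182) and with the endothelial covariate (0.39, adjusted p = 0.181). Among control_4C libraries 6 of 7 lay above its control_RT mean (ratio of means 1.22). Pdk4, a kinase that holds back pyruvate oxidation and, like Angptl4, a PPAR target, fell in control rats by log2 -0.85 ± 0.30 (edgeR adjusted p = 0.0405) and changed by -0.02 ± 0.27 in knockout rats (adjusted p = 0.967). Its call in control rats ended without any 1 of 9 libraries (control_RT replicates 1, 2 and 6, control_4C replicates 1, 2, 3, 5, 6 and 7), where the log2 change over all 32 fits ran from -1.03 to -0.69. It also ended with a replicate block in control rats (-0.80, edgeR adjusted p = 0.0798), without the 4 libraries that stood apart (-0.90, adjusted p = 0.0642) and with each of the 4 covariates (-0.86 to -0.50, adjusted p from 0.0584 to 0.539). Rxra, the retinoid receptor that pairs with PPARs, was measured at 0 to 3.15 CPM in the knockout groups and was called lower there after cold (log2 -1.59, edgeR adjusted p = 0.0427), a call that ended without the 4 libraries that stood apart (-0.83, edgeR adjusted p = 0.382) with the slow-fibre (-1.06), endothelial (-0.89) and 45-transcript (-0.93) covariates, and without any 1 of 9 libraries (KO_RT replicates 8, 10, 13 and 14, KO_4C replicates 2, 5, 6, 7 and 9). Ppard, the main PPAR of muscle, changed by 0.24 ± 0.15 and 0.05 ± 0.13 (edgeR adjusted p = 0.284 and 0.85), and by 0.47 and 0.61 with the endothelial covariate (adjusted p = 0.0155 and 0.0382).

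**Figure D4:**
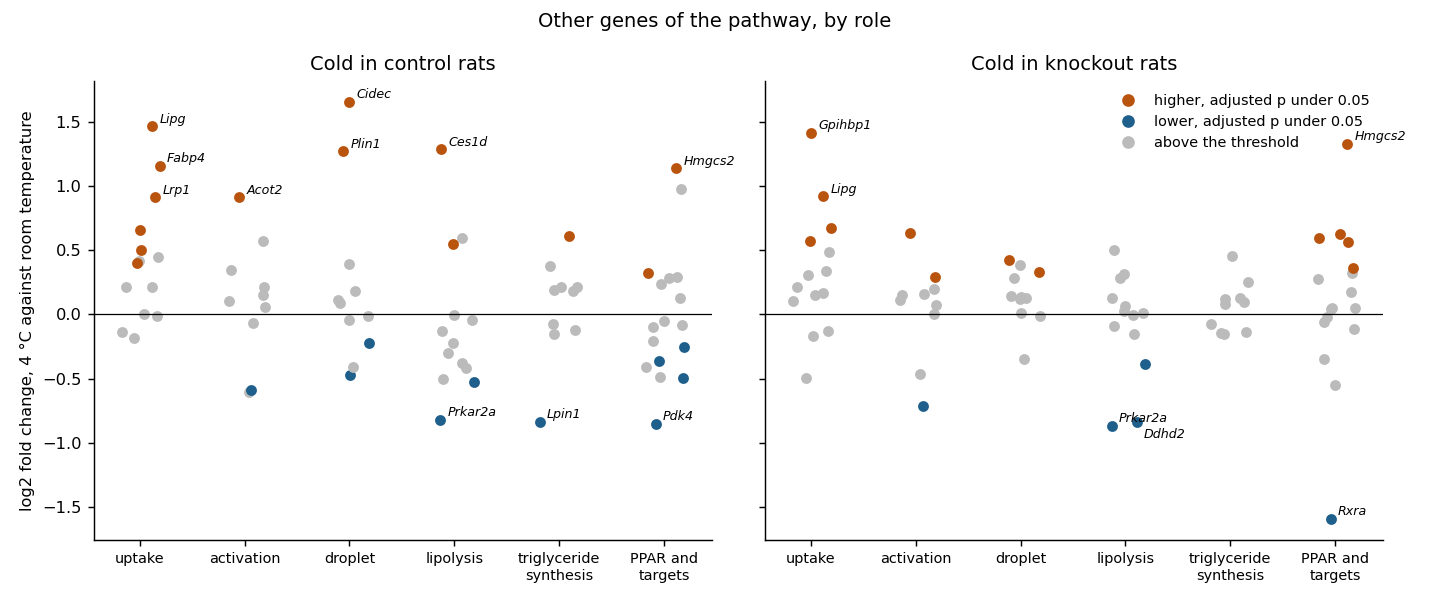
Log2 change after cold (vertical axis) of the 75 other pathway genes tested, by role, in control rats (left) and knockout rats (right). Orange points were called higher and blue points lower by edgeR, grey points were not called, and symbols are given for the largest called changes. In the uptake list the called genes all lie above 0, and in the lipolysis list the called genes of knockout rats all lie below 0.

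Libraries of the same group also differed from each other, and some genes varied together. Group means were removed, and log2 CPM deviations (pseudocount 0.1 CPM) were compared over all 32 libraries, with samples permuted within groups. Of 28 pairs of the 8 genes, 3 had a permutation p under 0.05 after Benjamini-Hochberg adjustment by Pearson's r and 4 by Spearman's rho. Fabp3 and Plin5 had r = 0.83 and rho = 0.84 (permutation p = 1e-05 for both, the smallest these permutations can give, adjusted p = 0.00028). Within the control groups r was 0.84 at room temperature and 0.72 after cold, and within the knockout groups it was 0.91 and 0.84. Without the 2 libraries farthest from the median of Fabp3, r was 0.80. Fabp3 and Acsl1 had r = 0.64 and rho = 0.66 (permutation p = 0.00024 and 0.00017, adjusted p = 0.00336 and 0.00238), with r from 0.38 to 0.76 within groups and 0.58 without the 2 farthest libraries. Plin5 and Angptl4 had r = 0.51 and rho = 0.55 (permutation p = 0.00379 and 0.00196, adjusted p = 0.0354 and 0.015), with r from 0.16 to 0.73 within groups and 0.53 without the 2 farthest libraries. Acsl1 and Plin5 passed by rho only (rho = 0.58, permutation p = 0.00214, adjusted p = 0.015, r = 0.46, permutation p = 0.0199, adjusted p = 0.1), with r from 0.24 to 0.80 within groups and 0.54 without the 2 farthest libraries. Lpl passed with none of the other genes, with r from -0.18 to 0.33.

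**Figure D5:**
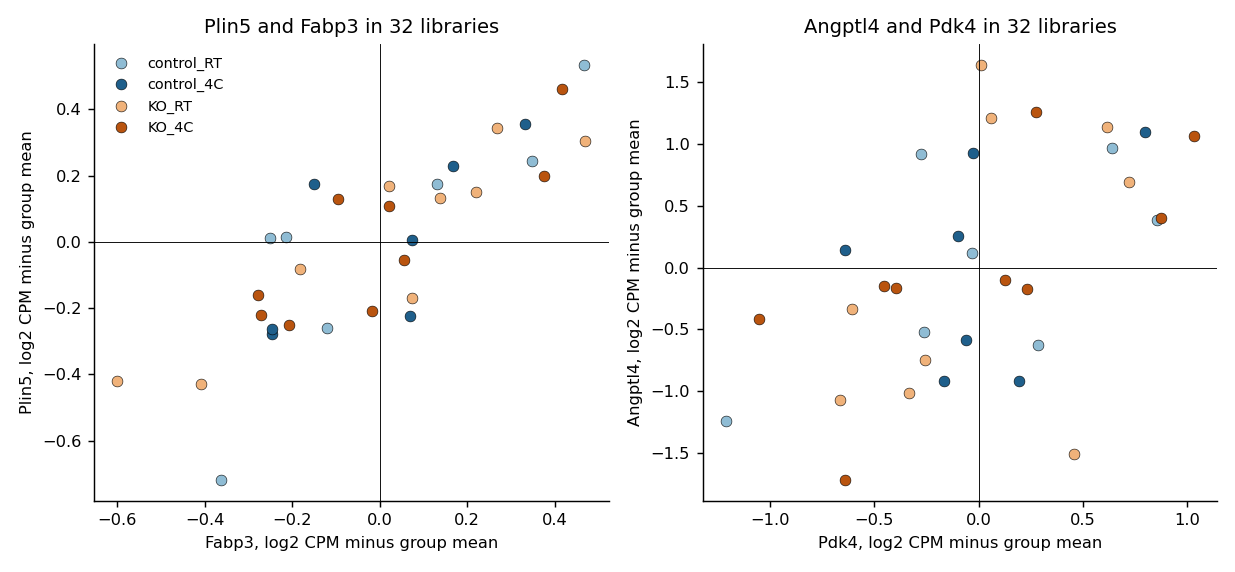
Deviations from the group mean in log2 CPM, one point per library, coloured by group, for Fabp3 and Plin5 (left) and for Pdk4 and Angptl4 (right). The points of Fabp3 and Plin5 lie along a line in all 4 groups, where r runs from 0.72 to 0.91, while those of Pdk4 and Angptl4 scatter more widely.

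The same deviations were set against the mean level of adipocyte, slow-fibre and endothelial markers. Of 24 relations 0 passed after adjustment. The strongest was that of Acsl1 with the slow-fibre level (r = 0.57, permutation p = 0.00302, adjusted p = 0.0725, rho = 0.48, permutation p = 0.0123, adjusted p = 0.121), which was 0.39 without the 2 farthest libraries and ran from 0.09 to 0.87 within groups. For Lpl and the slow-fibre level r was 0.47 (permutation p = 0.00742, adjusted p = 0.0890) and rho 0.44 (permutation p = 0.0152, adjusted p = 0.121), with r = 0.36 without the 2 farthest libraries. Lipe had r = 0.24 with adipocyte and -0.32 with slow-fibre markers (permutation adjusted p = 0.463 for both).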

How the data were processed

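QuantSeq libraries, which read transcripts from their 3′ ends, were made from 500 ng of Trizol RNA of each of 32 gastrocnemius samples and sequenced with 50 bp forward reads, per the labels' protocols. Raw counts by Ensembl gene were deposited by the authors, with a normalised signal in a second table. The deposited signal equals the count over a library's size factor (0.523 to 2.06). Per the submitters' processing notes R 3.4.3, DESeq2 1.18.1 and the build Rnor_6.0 were used. No source used here names the aligner or the counter. Every count is even, which may mean that reads were entered in duplicate, and counts divided by 2 were an alternative. KO_RT replicates carry the numbers of their table columns, which match the sample titles and differ from the sample descriptions. The closest pair of libraries of a group differed by a chi-square per degree of freedom of 6.19, so none was counted as a duplicate.

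Counts were analysed with edgeR 4.0.16 in R 4.3.3: filterByExpr (minimum count 10), TMM factors, a robust quasi-likelihood fit of 4 group means over all 32 libraries, and Benjamini-Hochberg adjustment per comparison at 0.05 over the 11594 genes tested (1307 were not). SE is the absolute log2 change over the square root of F. Marker sums were compared by two-sided exact permutation tests, and relations between libraries by 100000 permutations within groups. The scripts were tested on simulated data. The members, the pathway lists and the marker lists were chosen with earlier results of these data known. From each pathway list the text names, per comparison, up to 2 called genes of smallest p in each direction, in a selection, and 11 genes looked up always. Promoters came from RefSeq's GRCr8 table. Alternatives were DESeq2 1.42.0, RLE factors, TMM factors that left out the 20 genes of highest count, tests without the filter, the compared groups alone, a replicate block in control rats, halved counts, leaving out 4 libraries or each library in turn, and marker levels as covariates. The alternatives for the named pathway genes, the endothelial covariate, the covariate of 45 transcripts and those for marker sums and relations were chosen after seeing the data.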

Additional observations from a re-analysis of the deposited data

Results flagged for a closer look

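In 44 groups of values (the 8 genes and the sums of 3 marker lists, each in 4 groups) the gap of the highest or lowest library to its neighbour was set against the range of its group. Chance marks about 1 in 20 such groups, and 3 were marked, all sums of marker genes and none a level of the 8 genes. The adipocyte markers of KO_RT replicate 8 summed to 695 CPM, where the median of the group was 239 CPM. The endothelial markers of the same library summed to 805 CPM, against a group median of 560 CPM. Those of control_4C replicate 7 summed to 1011 CPM, against a median of 687 CPM. KO_RT replicate 8 is 1 of the 4 libraries that stood apart.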

How the results depend on the processing

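For the 8 genes, 414 of 448 values over 12 alternatives, and 1220 of 1280 values with 1 library left out, kept their direction and their side of the threshold. The number called at 4 °C, 0 in the main analysis, was 1 with RLE factors, 1 with factors that left out the 20 genes of highest count (trimmed factors below), 3 with DESeq2, 1 with halved counts, 2 with the slow-fibre covariate and 1 with the covariate of 45 transcripts. Shares of all genes called there were 1.04%, 1.1%, 3.35%, 0.784%, 3.53% and 1.73% in the same order, against 0.0518% in the main analysis. The number called after cold in control rats, 4, was 1 with the slow-fibre covariate and 1 with that of 45 transcripts. Over all genes 4.37% and 3.39% were called in these fits, against 20.7% in the main analysis. The cause was not tested. With 1 library left out the counts were 4 to 5 for cold in control and 5 to 5 in knockout rats, 0 to 1 at room temperature, 0 to 2 at 4 °C and 0 to 1 for the difference of the cold responses. Of all genes at 4 °C, 6 were called in the main analysis, 121 with RLE factors, 432 with DESeq2 and 0 with the compared groups alone.

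With a replicate block in control rats the counts were 4 for cold in those rats and 0 for the difference of the cold responses, against 4 and 0 without it. Of the named pathway genes it ended only the call of Pdk4 in control rats (-0.80, edgeR adjusted p = 0.0798). No block was possible for knockout rats, whose column numbers differ between temperatures, or between genotypes. The numbers did not pair the control samples: 1 of 7 pairs had a correlation over 0.1 (range -0.224 to 0.187), and 1 matched best with its own number.

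Values that turned sign belonged to genes that passed no test in that comparison. For Slc27a1 at 4 °C the log2 difference was -0.0051 with RLE and -0.017 with trimmed factors, -3.3e-05 with DESeq2, -0.0088 with the compared groups alone, -0.029 with halved counts, -0.0046 without the 4 libraries and -0.0073 with the covariate of 45 transcripts. The difference of the cold responses of Acsl1 was 0.023 without the 4 libraries, 0.030 with the slow-fibre and 0.0017 with the adipocyte covariate, and 0.13 with that of 45 transcripts. With the slow-fibre covariate Slc27a1 changed by -0.035, Plin2 by -0.033 and Angptl4 by 0.17 in knockout rats. Fabp3 at room temperature was -0.011 with the covariate of 45 transcripts. With the endothelial covariate Lpl at room temperature was 0.013 and Angptl4 at 4 °C 0.10.

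For the named pathway genes 450 of 560 values were unchanged in call and direction, 79 lost and 2 gained a call, and 29 turned sign. In knockout rats Abhd5 was -0.0060 with RLE and -0.0036 with trimmed factors, -0.0066 with DESeq2, -0.0050 with the compared groups alone, -0.0081 with halved counts, -0.016 with the slow-fibre and -0.0092 with the adipocyte covariate, and -0.0090 with that of 45 transcripts. There G0s2 was 0.046 with the adipocyte and 0.36 with the endothelial covariate, and Ppard -0.024 without the 4 libraries and -0.063 with the covariate of 45 transcripts. Pdk4 was 0.13 without the 4 libraries, 0.30 and 0.0100 with the slow-fibre and adipocyte covariates and 0.13 with that of 45 transcripts. Plin4 was 0.12, 0.14 and 0.23 with the slow-fibre covariate, that of 45 transcripts and the endothelial one, and Dgat1 0.25 with the slow-fibre and 0.46 with the endothelial covariate. In control rats Plin4 was 0.063 and 0.42, G0s2 -1.005 and -1.09 and Dgat1 0.37 and 0.13 with the slow-fibre covariate and that of 45 transcripts, Dgat1 0.15 with the endothelial covariate and Ppard -0.0061 with that of 45 transcripts.

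With 1 library left out, these log2 values spanned 0. In control rats after cold they were -0.27 to 0.026 for Slc27a1, -0.10 to 0.025 for Abhd5 and -0.22 to 0.021 for Dgat1. In knockout rats they were -0.050 to 0.066 for Abhd5, -0.18 to 0.17 for G0s2, -0.0087 to 0.11 for Ppard and -0.20 to 0.068 for Pdk4. Between genotypes they were -0.072 to 0.037 for Lpl and -0.046 to 0.15 for Plin5 at room temperature, -0.12 to 0.16 for Slc27a1 and -0.28 to 0.12 for Angptl4 at 4 °C, and -0.066 to 0.040 for the difference of the cold responses of Acsl1. The planned covariate of transcript loss was not run as defined earlier, since its gene list was not at hand, and the mean of 45 transcripts stood in for it. Marker sums gave 11 adjusted p-values under 0.05 in the main analysis and 11 to 12 under 3 alternatives. Slc27a1, at 12 to 106 deposited counts per library, had an SE of 0.31 and 0.28 for its cold changes, and changes within that size were not detectable.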

Other observations

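Angptl4 was compared with 18 genes of the fatty acid receptor list over the 32 libraries after group means were removed, a comparison chosen after seeing the data. With Pdk4, another PPAR target, r was 0.53 and rho 0.53 (permutation p = 0.00263 and 0.00268, adjusted p = 0.0473 and 0.0482). Within the control groups r was 0.63 at room temperature and 0.34 after cold, within the knockout groups it was 0.43 and 0.71, and over all libraries it was 0.50 without the 2 farthest libraries. None of the other 17 relations passed, among them Ppard (r = 0.11) and Ucp3 (r = 0.44, permutation adjusted p = 0.121).

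Macrophage markers summed to 152 CPM in control_RT and 227 in control_4C (exact permutation adjusted p = 0.00932), and to 129 and 200 CPM in the knockout groups, which did not overlap (adjusted p = 0.00148 in the exact permutation test). The muscle fibre markers summed to 154125 and 123513 CPM in control rats (exact permutation adjusted p = 0.00787) and to 142952 and 122992 CPM in knockout rats (adjusted p = 0.0253 in the exact permutation test). Their list includes genes of fast fibres (Mylpf, Tnnt3, Tnni2, Tnnc2 and Actn3), while the slow-fibre sums were higher after cold. The sum cannot tell fewer muscle fibre transcripts from fewer fast-fibre transcripts, and this was not tested.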
